A study of Mus musculus with 12 samples.

Results

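The genes described are those of the mitochondrial respiratory chain. A gene was a member when its probe sets carried a single symbol of the form Nduf followed by a, b, c, s or v, Sdha to Sdhd, Uqcr, Cox4 to Cox8, or Atp5. The rule used no measured value and found 90 members among 18193 genes with a single symbol. They comprised 36 complex I subunits, 8 complex I assembly factors (the Ndufaf genes), 4 genes of complex II, 8 of complex III, 17 of complex IV and 17 of complex V. By their names Ndufa4 and its paralog Ndufa4l2 stand with complex I here, although the Ndufa4 protein is now counted with complex IV. Of the 90, 89 passed a filter on low values and were tested. The other one, the complex I subunit gene Ndufb4, lay below the floor of that filter (5.56 on the log2 intensity scale) on all 12 arrays, at most at 5.16.

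The cells were mouse embryonic stem (ES) cells, either Tcf3+/+ (wild type) or Tcf3-/- (knockout). The gene the labels call Tcf3 now has the symbol Tcf7l1; it encodes a DNA-binding protein of the Tcf/Lef family that acts mostly as a repressor at Wnt target genes. All cells were kept on gelatin-coated plates without feeders, in a serum medium with leukaemia inhibitory factor (Lif), and RNA came either from control medium or after 24 h with 50 ng/ml recombinant Wnt3a, a secreted ligand whose signal keeps beta-catenin from being degraded. Each of the 4 groups of genotype and medium had 3 Affymetrix arrays, 12 in all. The labels name no age, strain or clone, so the genotype cannot be told apart from any other difference between the cell lines. Nor do they state that replicates came from separate cultures; the p-values therefore rest on array-to-array spread that may be only technical.

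The respiratory chain sits in the inner mitochondrial membrane. Complex I (NADH dehydrogenase) and complex II (succinate dehydrogenase, also an enzyme of the citric acid cycle) pass electrons to ubiquinone, complex III (the cytochrome bc1 complex) passes them on to cytochrome c, and complex IV (cytochrome c oxidase) gives them to oxygen. The protons pumped on the way drive complex V, the ATP synthase. A small set of core subunits of complexes I, III, IV and V is encoded in the mitochondrial genome and all other subunits in the nucleus, some of them, mainly in complex IV, as isoforms used in particular tissues. Naive mouse ES cells are known to use both glycolysis and respiration.

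Tcf7l1 itself was lower in the knockout, by 1.38 on the log2 scale without and by 1.28 with Wnt3a (limma adjusted p = 1.17e-06 and 7.75e-06), with no overlap between the arrays of the genotypes. Arrays of a group correlated at 0.995 to 0.998 over all probe sets. The dap spike-in, a bacterial RNA added during labelling, read 4.35 to 4.48 on the 6 control-medium arrays and 11.6 to 11.8 on the 6 Wnt3a arrays, so medium and array preparation cannot be told apart. The 3' minus 5' log2 difference of actin, a measure of RNA quality, was 0.18 to 0.27 on wild-type and 0.31 to 0.41 on knockout arrays. That of Gapdh separated the media instead, at -0.010 to 0.041 on control-medium and -0.099 to -0.036 on Wnt3a arrays. Markers of other cell types also moved with the genotype. The summed intensity of the trophectoderm list was 22175 to 35540 on wild-type and 3123 to 3554 on knockout control arrays, and 18017 to 21521 against 2734 to 2959 in Wnt3a medium, with Krt18 and Krt8 falling and the defining marker Elf5 below the floor throughout. The fibroblast list summed to 20626 to 31655 against 10406 to 10936 in control medium, and to 24819 to 27242 against 10582 to 11332 in Wnt3a medium, with Col3a1 and Lum below the floor on all arrays. Its genes did not move together: of 11 tested, 5 were higher and 4 lower in the knockout in control medium, and 1 higher and 4 lower with Wnt3a. In the trophectoderm list 0 were higher and 5 lower of 8 in control medium, and 1 and 6 with Wnt3a. The primitive and visceral endoderm list overlapped between the genotypes in both media. The ES cell markers summed to 82035 to 88112 on wild-type and 103885 to 105730 on knockout control arrays, and to 96098 to 102571 and 106241 to 112035 with Wnt3a. In bulk samples such as these, fewer cells of a type and less RNA per cell cannot be told apart, and the part of these markers, of the actin and Gapdh differences and of array preparation in the results below was not tested.

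In the deposited scaling the respiratory chain genes as a group were lowest in wild-type cells in control medium and highest in knockout cells with Wnt3a, and the shifts were small. The order of the media in wild-type cells, and its size in knockout cells, rested on that scaling. With the quantile normalization repeated, wild-type cells had a median Wnt3a-minus-control difference of -0.0053 and knockout cells one of 0.0179. All genes then had medians of -0.037 and -0.013. On each array, every member's deviation from its own mean over the 12 arrays was taken and the median over the 89 members was formed. This median was -0.16, -0.02 and -0.11 on the 3 wild-type control arrays (log2), 0.039, -0.006 and -0.0005 on the knockout control arrays, between -0.013 and -0.008 on the wild-type Wnt3a arrays, and between 0.098 and 0.113 on the knockout Wnt3a arrays. The 3 knockout Wnt3a arrays stood above all others, the 3 wild-type control arrays lay lowest with the second of them close to the wild-type Wnt3a arrays, and the other groups lay between. The median over all 13811 tested genes stayed between -0.02 and 0.03 on every array.

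**Figure D1:**
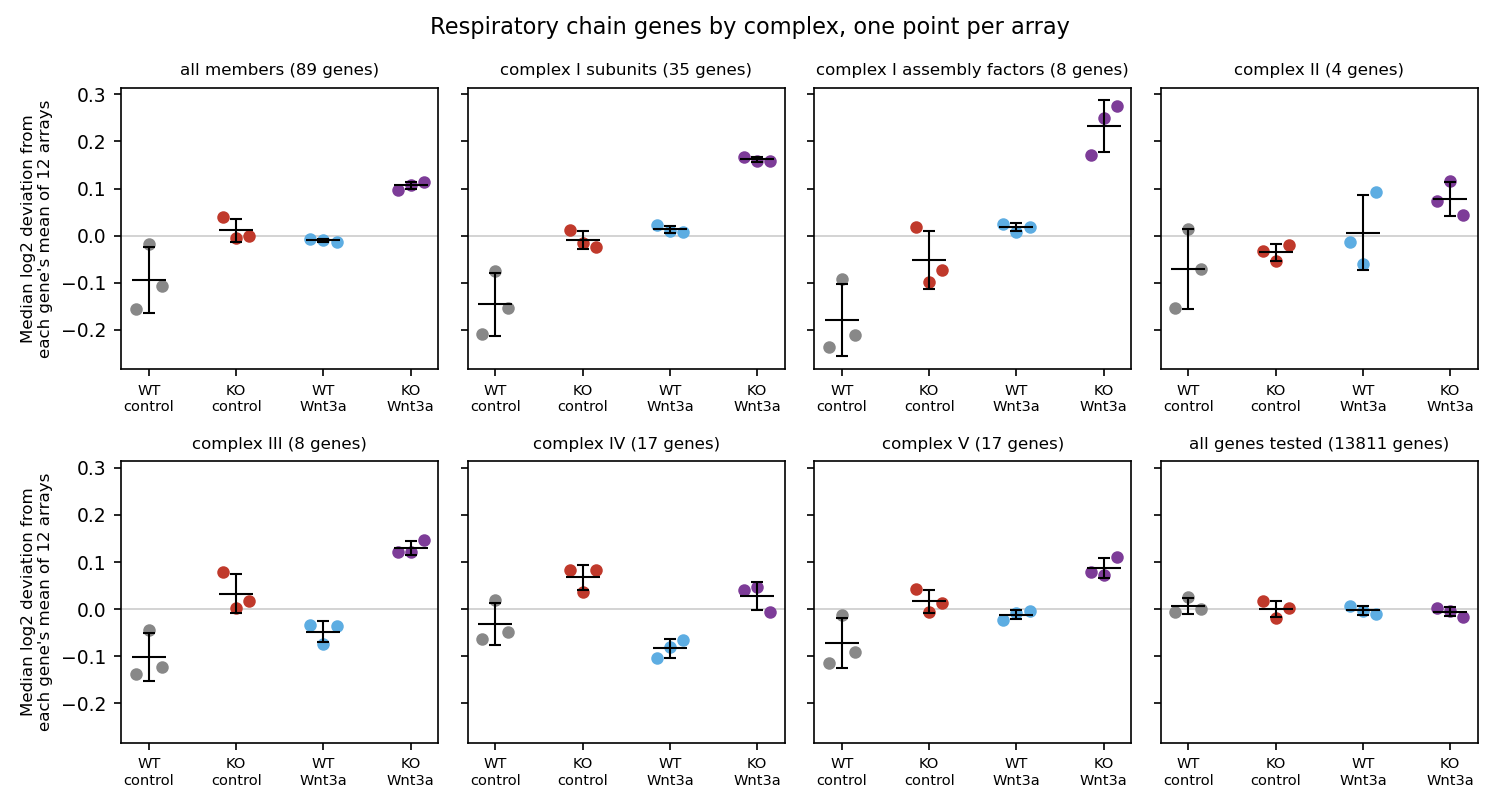
Median log2 deviation of the tested members from each gene's own mean over 12 arrays, by array, for all members and for the parts of the chain; points are arrays, and bars give the mean and SD of the 3 arrays of a group. The knockout Wnt3a arrays lie highest for all members and for complex I, while for complex IV the wild-type Wnt3a arrays lie lowest.

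The range was wider for complex I, where the mean of its subunits' array medians was -0.146 ± 0.067 in wild-type control, -0.009 ± 0.018 in knockout control, 0.014 ± 0.007 in wild-type Wnt3a and 0.162 ± 0.005 in knockout Wnt3a cells (SD, n = 3 each). Complex V had the same lowest and highest groups over a narrower range, from -0.072 to 0.087. Complex IV differed, with its lowest mean, -0.084, in wild-type Wnt3a cells and its highest, 0.068, in knockout control cells. Gene by gene, 54 of the 89 members (60.7%) had their highest group mean in knockout Wnt3a cells, against 25.1% of all tested genes. The lowest mean lay in wild-type control cells for 52 members (58.4%), against 30.9% of all tested genes. For complex IV the highest mean lay in knockout control cells for 9 of 17 genes, and the lowest in wild-type Wnt3a cells for 10.

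The first comparison asked what differed between knockout and wild-type cells in control medium. Of the 89 members, 25 were higher in the knockout and 3 lower at an adjusted p under 0.05. That was 28.1% higher and 3.37% lower, where 42.2% of all tested genes were called, 19.9% higher and 22.3% lower. In the main fit the share of members called, 31.5%, thus lay below that of all genes, and the calls of members lay mostly on one side. With an intensity trend in the fit the order of these shares turned: 44 of the 89 members were called, beside 5965 of all 13811 genes. The members' calls still lay mostly on one side, 36 higher and 8 lower. The median difference was 0.11 over the members and 0.01 over all genes (log2), and 73 of the 89 lay above 0. With each array centred on its own median, 25 members were higher and 0 lower. Leaving out wild-type control array 3 left 17 members called. The rises here, and those between the genotypes in Wnt3a medium, included Cox7b2, which passed the filter through its knockout arrays.

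Complex I held 15 of the 25 rises and all 3 falls. Its 35 tested subunits had a median difference of 0.12, and without wild-type control array 1 or array 3 the number that rose was 9. Complex III had 3 rises among 8 genes, all 8 above 0, with a median of 0.12. Complex IV had 4 rises among 17, complex I assembly factors 2 among 8, complex II none among 4, and complex V 1 among 17. In complex V 14 of the 17 genes lay above 0 with a median difference of 0.07 and a median standard error of 0.06. At an unadjusted p under 0.05 in the limma fit 5 of the 17 were higher, beside 3210 of all 13811 tested genes. With an intensity trend in the fit 7 were called higher, where 5965 of all genes were called in either direction. The difference in counts between complexes was not tested.

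**Figure D2:**
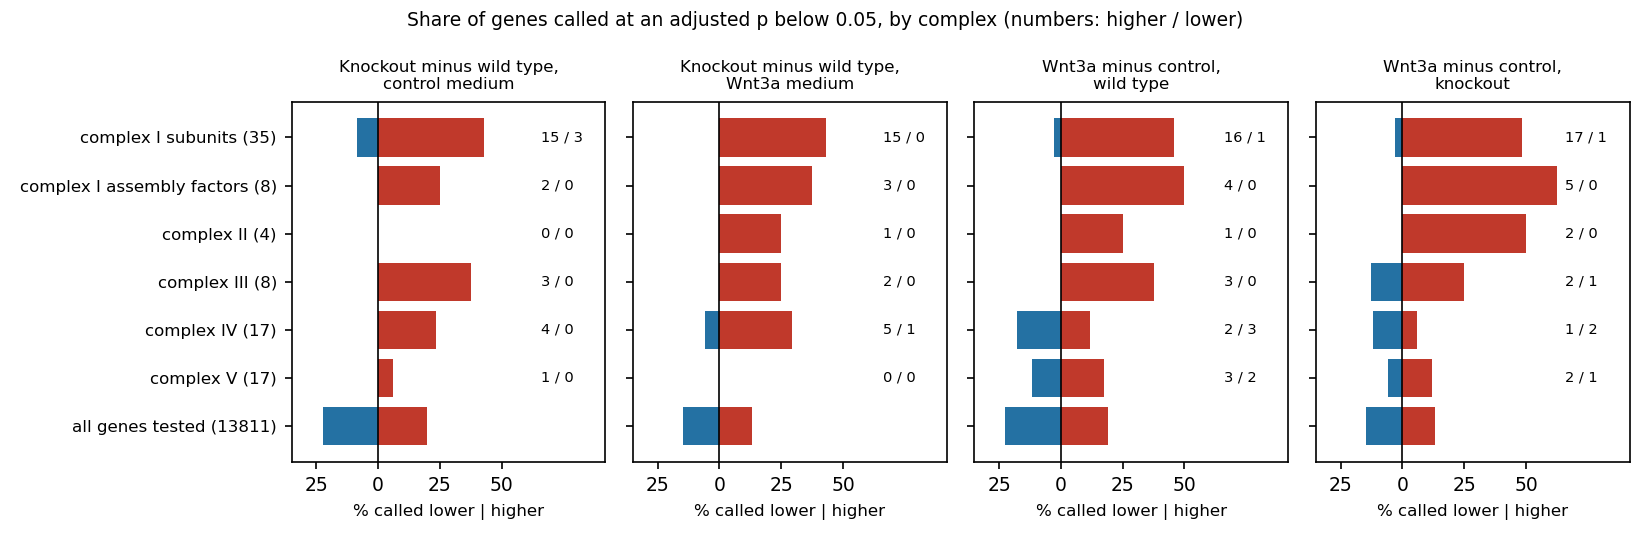
Percentage of tested members called higher (right of 0) or lower (left of 0) in each part of the chain for the 4 comparisons, beside the same percentages over all 13811 tested genes. Complex I subunits were called higher in 42.9% in both knockout comparisons, and complex V in 1 gene and in none.

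Among the nuclear genes of the complex I peripheral and membrane arms, Ndufb11, an accessory subunit of the membrane arm, read 12.62, 12.81 and 12.71 in wild-type control, 13.14, 13.00 and 13.07 in knockout control, 12.81, 12.73 and 12.75 in wild-type Wnt3a and 13.12, 13.10 and 13.14 in knockout Wnt3a cells. Both media thus showed knockout arrays above all wild-type arrays. It was higher by 0.35 ± 0.06 in control medium (log2 ± SE, 1.28-fold, adjusted p = 0.000843) and by 0.35 in Wnt3a medium (adjusted p = 0.00179), and its Wnt3a difference was 0.05 in each genotype and was not called. Ndufa6, a LYR-motif accessory subunit, read 11.13, 11.37 and 11.28 in wild-type control, 11.62, 11.61 and 11.53 in knockout control, 11.62, 11.60 and 11.50 in wild-type Wnt3a and 11.91, 11.89 and 11.85 in knockout Wnt3a cells. Here both the genotype and the medium separated the arrays, and the knockout arrays without Wnt3a lay at the level of the wild-type arrays with it. The 4 differences were 0.32 and 0.31 for the knockout in control and Wnt3a medium (adjusted p = 0.00243 and 0.0064) and 0.31 and 0.30 for Wnt3a in wild-type and knockout cells (adjusted p = 0.00394 and 0.00883). Ndufc1, a small accessory subunit, behaved alike, with 12.48, 12.55 and 12.52 in wild-type control, 12.73, 12.72 and 12.71 in knockout control, 12.67, 12.70 and 12.70 in wild-type Wnt3a and 13.04, 12.98 and 13.04 in knockout Wnt3a cells. Its knockout differences were 0.20 ± 0.05 and 0.33 (adjusted p = 0.00647 and 0.000625).

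Ndufb5, another membrane-arm subunit, and Ndufs1, the iron-sulphur core subunit of the NADH-oxidising module, were chosen after their values were seen, to show genes with calls under every setting tried in control medium. Ndufb5 read 12.26, 12.37 and 12.27 in wild-type and 12.63, 12.59 and 12.64 in knockout control cells, then 12.54, 12.58 and 12.59 and 12.81, 12.78 and 12.81 with Wnt3a. Knockout arrays lay above wild-type arrays in both media, by 0.32 ± 0.05 and 0.23 (adjusted p = 0.000467 and 0.00686). Ndufs1 read 11.65, 11.87 and 11.69 in wild-type and 12.11, 11.97 and 12.02 in knockout control cells, 0.30 ± 0.07 higher (adjusted p = 0.00337). Of 6 core subunits encoded in the nucleus and analysed here 2, Ndufs1 and the flavoprotein Ndufv1 (0.21, adjusted p = 0.0103), rose in control medium.

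The 3 falls were all small. Ndufb1, a short membrane-arm subunit, read 9.14, 9.47 and 9.31 in wild-type and 9.08, 8.92 and 9.10 in knockout control cells, a fall of 0.27 ± 0.09 (adjusted p = 0.0332). Ndufb7, which carries disulphide-bonded helices, fell by 0.20 (adjusted p = 0.0344), and Ndufab1, the mitochondrial acyl carrier protein, fell by 0.16. None of the 3 calls held when each array was centred on its median. The Ndufb1 call also ended on leaving out array 2 (adjusted p = 0.129) or 3 (0.0835) of wild-type control or array 1 (0.0524) or 2 (0.123) of knockout control. That of Ndufb7 ended in the same way with array 2 (0.126) or 3 (0.0875) of wild-type control and with any of knockout control arrays 1, 2 and 3 (0.0510, 0.0947 and 0.0798). For Ndufab1 this held for wild-type control arrays 2 and 3 (0.105 and 0.113), knockout control arrays 1 and 2 (0.0715 and 0.120), wild-type Wnt3a array 2 (0.0513) and knockout Wnt3a array 2 (0.0532).

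Ndufaf5, a hydroxylase that acts in the assembly of complex I, rose by more in control medium than every gene grouped with complex I subunits except Ndufa4l2. It read 8.48, 8.79 and 8.66 in wild-type control, 9.33, 9.20 and 9.25 in knockout control, 9.21, 9.01 and 9.06 in wild-type Wnt3a and 9.49, 9.61 and 9.56 in knockout Wnt3a cells. No wild-type array reached a knockout array of the same medium. The difference was 0.61 ± 0.08 in control medium (1.53-fold, adjusted p = 0.000113) and 0.46 with Wnt3a (1.37-fold, adjusted p = 0.00205). Ndufaf1, an assembly factor for the membrane arm, was higher by 0.30 in the knockout with Wnt3a (adjusted p = 0.0126), and its difference in control medium was 0.16 (adjusted p = 0.116).

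In complex III, Uqcr10, a small supernumerary subunit, read 12.15, 12.33 and 12.20 in wild-type control, 12.82, 12.76 and 12.71 in knockout control, 12.47, 12.51 and 12.52 in wild-type Wnt3a and 12.79, 12.89 and 12.87 in knockout Wnt3a cells. The knockout arrays stood above the wild-type arrays in both media, with the gap narrower after Wnt3a. The differences were 0.54 ± 0.06 (1.45-fold, adjusted p = 3.42e-05) and 0.35 (1.27-fold, adjusted p = 0.00179), and their own difference, -0.19, did not pass the test (interaction adjusted p = 0.255). Uqcrq, the ubiquinone-binding subunit VIII, read 12.44, 12.46 and 12.39 in wild-type and 12.67, 12.70 and 12.68 in knockout control cells, and 12.42, 12.47 and 12.50 against 12.66, 12.76 and 12.90 with Wnt3a. Its differences were 0.25 ± 0.06 and 0.31 (adjusted p = 0.00731 and 0.00428).

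Isoforms of tissue-restricted use held the 4 largest differences in control medium. These 8 genes were the testis isoforms Cox6b2, Cox7b2 and Cox8c, the heart and muscle isoforms Cox6a2, Cox7a1 and Cox8b, the lung isoform Cox4i2, and Ndufa4l2, a paralog of Ndufa4 induced by hypoxia. All 8 were above 0 in the knockout in control medium, with a median of 0.47, and 4 were called higher. In Wnt3a medium 7 were above 0, with a median of 0.40, and 4 were called. The 81 other members had 21 rises and 3 falls in control medium and 22 and 1 in Wnt3a medium, with medians of 0.09 and 0.10.

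Cox7b2 read 5.44, 5.88 and 5.51 in wild-type control, 7.68, 7.25 and 6.68 in knockout control, 4.95, 5.09 and 4.84 in wild-type Wnt3a and 6.57, 6.48 and 6.18 in knockout Wnt3a cells. All knockout arrays were above all wild-type arrays. Only 1 of the 6 wild-type arrays, control array 2, exceeded the floor of 5.56, so the gene passed the filter through its knockout arrays and had to differ; its calls support nothing beyond that. The fitted difference in control medium, 1.60 ± 0.21 (3.02-fold), thus rests on wild-type values of which 1 of 3 was measured above the floor. In Wnt3a medium, set against the floor, the knockout was at least 1.80-fold higher, and the fitted log2 difference was 1.45 (adjusted p = 0.000403). Ndufa4l2 read 7.11, 7.20 and 6.83 in wild-type control, 8.02, 8.27 and 8.003 in knockout control, 6.72, 6.80 and 6.81 in wild-type Wnt3a and 7.43, 7.78 and 7.95 in knockout Wnt3a cells. Again the genotypes did not overlap in either medium, with differences of 1.05 ± 0.13 (2.07-fold, adjusted p = 5.03e-05) and 0.94 (1.92-fold, adjusted p = 0.000326). These were the only members past 2-fold in control medium.

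Cox7a1 read 8.20, 8.28 and 8.18 in wild-type control, 8.97, 8.77 and 9.01 in knockout control, 8.32, 8.18 and 8.17 in wild-type Wnt3a and 9.05, 8.90 and 8.48 in knockout Wnt3a cells. It was higher in the knockout by 0.69 ± 0.12 (1.62-fold, adjusted p = 0.000693) and 0.59 (1.5-fold, adjusted p = 0.00425), while its Wnt3a difference was called in neither genotype. The summed intensity of the heart and skeletal muscle markers was lower in the knockout, at 1135 to 1620 on wild-type and 678 to 699 on knockout control arrays. With Wnt3a it was 936 to 1485 and 599 to 655, and the muscle marker Tnnt2 lay below the floor on all arrays. These genes did not move together: of 7 tested, 1 was higher and 3 were lower in the knockout in each medium. Cox6b2 read 9.60, 9.62 and 9.72 in wild-type control, 10.44, 10.29 and 10.25 in knockout control, 10.06, 10.31 and 10.67 in wild-type Wnt3a and 10.45, 10.90 and 11.11 in knockout Wnt3a cells. The genotypes separated in control medium, by 0.68 ± 0.16 (1.60-fold, adjusted p = 0.00536), while in Wnt3a medium their arrays overlapped and the difference of 0.47 was not called (adjusted p = 0.0509). Cox8b was higher by 0.26 (adjusted p = 0.0774) and 0.32 (adjusted p = 0.0487), and the second of these was lost on leaving out any array but wild-type control array 2 and wild-type Wnt3a array 3, up to an adjusted p of 0.183. Cox4i2 (0.15 and 0.13), Cox8c (0.12 and 0.22) and Cox6a2 were not called in either medium.

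**Figure D3:**
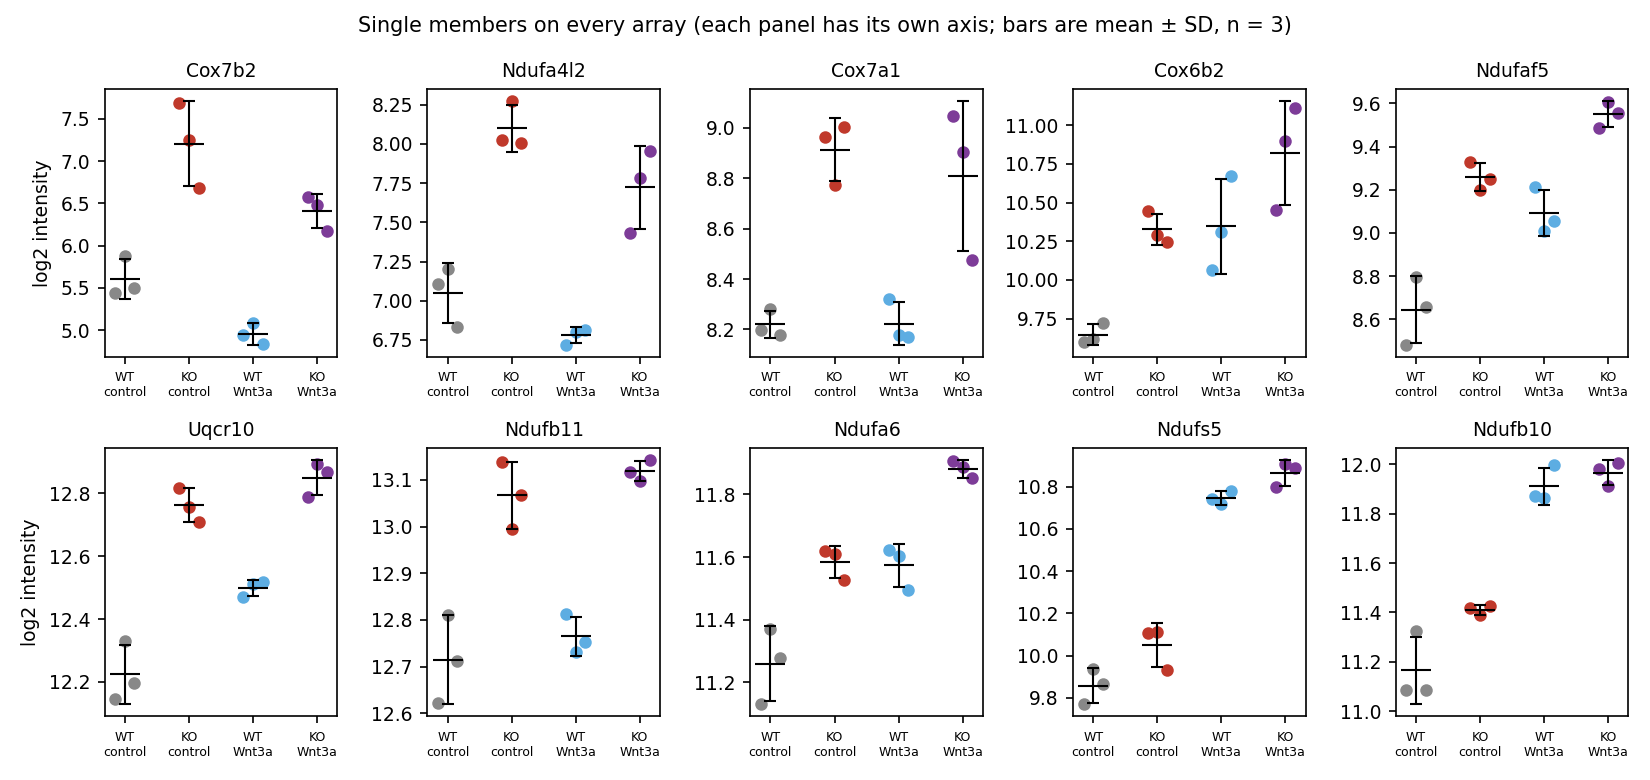
Log2 intensity of 10 members on each array by group, with the mean and SD of 3 arrays per group; each panel has its own axis. Cox7b2, Ndufa4l2, Cox7a1, Ndufaf5, Uqcr10, Ndufb11 and Ndufa6 show knockout arrays above wild-type arrays in both media, and Ndufs5 and Ndufb10 show Wnt3a arrays above control arrays in both genotypes.

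With Wnt3a in the medium of both genotypes, 26 members were higher in the knockout and 1 lower, where 28% of all tested genes were called, 13.2% higher and 14.7% lower. The members' shares were 29.2% higher and 1.12% lower, the median difference was 0.12 against 0.01 over all genes, and 75 of the 89 members lay above 0. The count was 16 or 14 without wild-type Wnt3a array 1 or 2 and 13 without knockout Wnt3a array 2. Complex I again held 15 of the rises, with a median of 0.14, and 9, 8 or 7 without those same arrays. Complex IV had 5 rises and 1 fall, the assembly factors 3 rises, complex III 2, complex II 1, and complex V neither rises nor falls. At an unadjusted p under 0.05 in the limma fit 3 of the 17 complex V genes were higher and 0 lower. Over all 13811 tested genes 2656 were higher and 2785 lower at that threshold. The 1 fall called, in complex IV, was Cox4i1, the ubiquitous isoform of subunit IV. It read 13.93, 13.88 and 13.85 in wild-type and 13.69, 13.71 and 13.70 in knockout cells, 0.19 ± 0.06 lower (adjusted p = 0.0328). Leaving out wild-type control array 3 ended that call (adjusted p = 0.0518), as did wild-type Wnt3a array 1 (0.101) or 2 (0.0789), or knockout Wnt3a array 1 (0.0741), 2 (0.0739) or 3 (0.0688). In control medium the difference of Cox4i1 was -0.15 (adjusted p = 0.0549).

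The comparisons of genotype in the 2 media set no array against another in common. They came from the same fit of 12 arrays and share each gene's estimate of spread, so their calls are not independent. Of the members higher in the knockout, 19 were called in both, which is 76% of the 25 in control medium and 73.1% of the 26 in Wnt3a medium. Over all tested genes 1313 were higher in both, 47.9% of the 2743 in control and 71.8% of the 1828 in Wnt3a medium. The 19 were 12 complex I subunits, 2 assembly factors, 2 complex III genes and 3 complex IV genes. Of these 10 were called in both media under every alternative that tested them, arrays left out in turn included, with Cox7b2 not tested under the stricter filter. They were Ndufa4l2, Ndufa6, Ndufb5, Ndufb11, Ndufc1, Ndufaf5, Uqcr10, Uqcrq, Cox7a1 and Cox7b2. Cox7b2 passed the filter through its knockout arrays and had to differ, so its place in these counts supports nothing. The other 9, Ndufa5, Ndufa9, Ndufb3, Ndufs1, Ndufs4, Ndufv1, Ndufv3, Ndufaf3 and Cox8a, each lost a call in at least 1 medium under some setting. Calls were followed gene by gene through the alternatives for the members only. The 10 and the 9 thus have no counterpart over all genes. Over the 89 members 79 had the same sign in both media, and the differences correlated at r = 0.92 and rho = 0.73, given as a description. The r counts the far points Cox7b2 and Ndufa4l2, and most wild-type values of Cox7b2 lay under the floor.

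**Figure D4:**
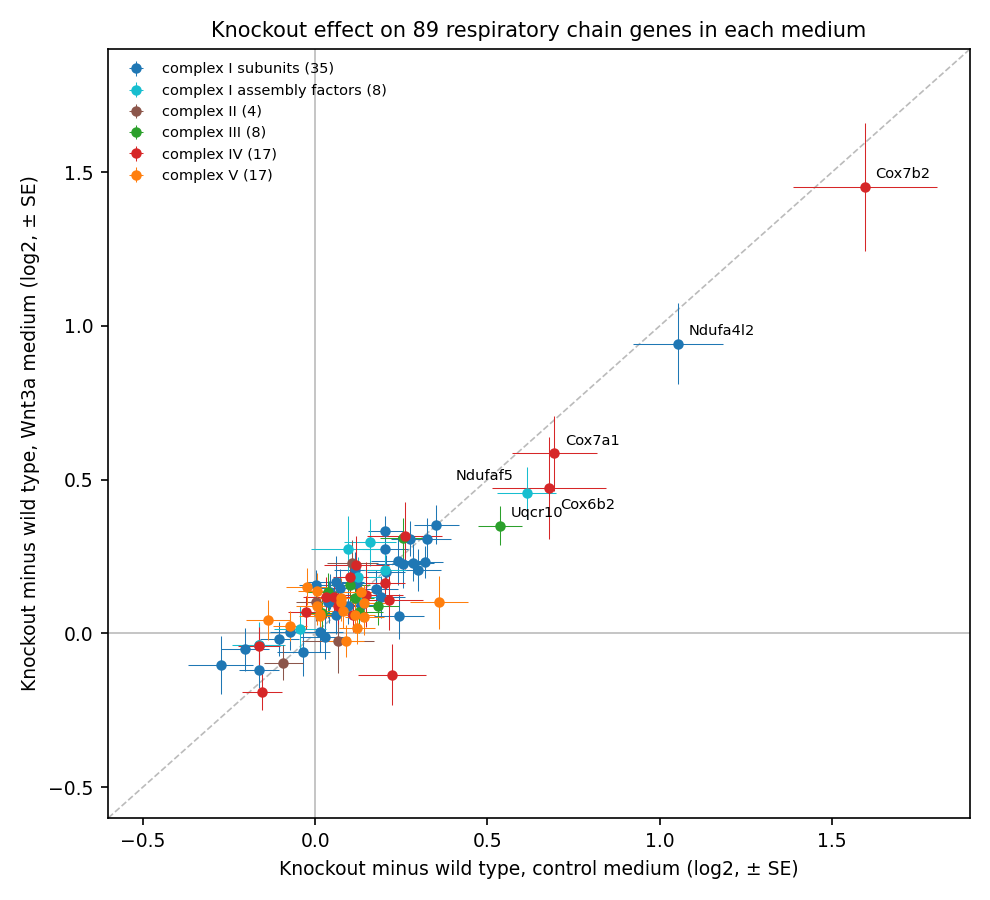
Log2 difference between knockout and wild-type cells for each of the 89 tested members, in control medium (horizontal axis) and in Wnt3a medium (vertical axis) with SE bars, coloured by the parts of the chain. Most points lie a little above 0 on both axes, and Cox7b2 and Ndufa4l2 lie farthest out.

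To show what the start regions of such genes hold, windows of 300 bases from 250 before to 50 after the annotated start (RefSeq, GRCm38.p6) were available for 74 of the 90 members. The 5 windows printed are those of members higher in the knockout in both media: Ndufa6, Ndufaf5 and Ndufa5 with letters of a searched motif, and Cox7a1 and Cox7b2 without any. Each reads 5′ to 3′ along the gene, and capitals mark the letters found. The windows lie at chr15:82354242-82354541 (minus strand, Ndufa6), chr2:140170396-140170695 (plus strand, Ndufaf5), chr6:24527641-24527940 (minus strand, Ndufa5), chr7:30183921-30184220 (plus strand, Cox7a1) and chr5:71548156-71548455 (minus strand, Cox7b2).
Ndufa6: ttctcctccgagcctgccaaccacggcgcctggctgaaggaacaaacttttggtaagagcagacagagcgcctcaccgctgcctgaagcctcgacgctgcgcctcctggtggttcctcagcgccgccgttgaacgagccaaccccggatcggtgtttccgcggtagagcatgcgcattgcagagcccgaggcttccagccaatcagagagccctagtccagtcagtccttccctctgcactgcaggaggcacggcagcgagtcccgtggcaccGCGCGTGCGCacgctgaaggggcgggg
Ndufaf5: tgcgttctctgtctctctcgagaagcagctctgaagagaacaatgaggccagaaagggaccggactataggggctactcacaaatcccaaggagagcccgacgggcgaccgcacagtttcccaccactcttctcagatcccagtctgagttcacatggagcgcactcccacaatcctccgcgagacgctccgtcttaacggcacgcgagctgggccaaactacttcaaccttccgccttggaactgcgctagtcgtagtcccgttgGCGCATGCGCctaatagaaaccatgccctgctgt
Ndufa5: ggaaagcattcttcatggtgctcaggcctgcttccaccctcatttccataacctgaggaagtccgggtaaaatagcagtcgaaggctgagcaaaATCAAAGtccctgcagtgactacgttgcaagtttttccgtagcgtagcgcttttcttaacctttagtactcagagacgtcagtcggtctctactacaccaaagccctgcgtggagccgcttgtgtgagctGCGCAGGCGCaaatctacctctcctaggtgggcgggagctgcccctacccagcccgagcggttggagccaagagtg
Cox7a1: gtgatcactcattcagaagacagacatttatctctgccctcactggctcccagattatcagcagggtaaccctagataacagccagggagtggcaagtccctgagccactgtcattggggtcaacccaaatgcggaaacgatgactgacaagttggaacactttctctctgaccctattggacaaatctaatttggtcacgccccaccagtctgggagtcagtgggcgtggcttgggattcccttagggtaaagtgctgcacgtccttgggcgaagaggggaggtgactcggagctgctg
Cox7b2: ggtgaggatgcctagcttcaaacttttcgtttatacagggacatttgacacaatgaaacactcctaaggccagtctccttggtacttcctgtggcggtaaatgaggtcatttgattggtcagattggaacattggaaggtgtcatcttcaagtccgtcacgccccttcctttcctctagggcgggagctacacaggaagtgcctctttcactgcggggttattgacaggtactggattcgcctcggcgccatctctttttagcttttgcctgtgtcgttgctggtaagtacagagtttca

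Letters were searched on both strands. Each gene counts once, with the letters in any of its windows. The letters of NRF1 (GCGCA, any base, then GCGC), a transcription factor known to bind at nuclear genes for respiration, occurred in 17 of 74 members (23.0%), in 10.4% of tested genes with a window and in 5.19% of all genes with one. In Ndufa6 they stand as GCGCGTGCGC, read from the other strand, from base 24 on, counting the start site as 1. Ndufaf5 has them as GCGCATGCGC from base 17, and Ndufa5 as GCGCAGGCGC beginning 26 bases before the start. The letters CCGGAAG, a core of Ets factors such as GABP, were in 19 members (25.7%; 18.2% of tested genes), and TCAAGGTCA, of estrogen-related receptors such as Esrrb, in 2 (2.7%; 0.334%). ATCAAAG, a Tcf/Lef core, occurred in 1 member, Ndufa5, 156 bases before the start (1.35%; 3.26% of tested genes). Among the members higher in both media, 3 of the 16 with a window held the NRF1 letters, and in complex V, where 1 gene and then none was called higher, 6 of 15. The 4 tissue-restricted isoforms with a window held none of the 4 motifs and had 2 to 10 CpG dinucleotides (median 8.5), against 8 to 43 (median 20) in the other 70 members. A match is a run of letters and not a measured site of binding.

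With Wnt3a, complex I subunits and their assembly factors made up most of the rises in both genotypes, and the falls were few and lay mainly in complexes IV and V. In wild-type cells 29 members were higher with Wnt3a and 6 lower (32.6% and 6.74%), where 41.5% of all tested genes were called, 18.9% higher and 22.6% lower. In knockout cells 29 were higher and 5 lower (32.6% and 5.62%), where 28% were called, 13.3% higher and 14.7% lower. The members' median was 0.09 in each genotype, against -0.02 and -0.01 over all genes, but with the quantile normalization repeated it became -0.0053 (wild type) and 0.018 (knockout), and the calls were then 18 higher and 18 lower in wild-type and 21 higher and 7 lower in knockout cells. All genes then had medians of -0.037 and -0.013, below those of the members. In wild-type cells, whether Wnt3a raised the members on balance thus turned on the scaling. In knockout cells the rises still outnumbered the falls, but the median shrank. The rises were 16 and 17 of 35 complex I subunits in wild-type and knockout cells, and 9 and 13 with the quantile normalization repeated. Assembly factors had 4 and 5 rises of 8, and complex IV genes 2 and 1 of 17. Complex IV had medians of -0.08 and -0.04 and 3 and 2 falls.

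Ndufs5, a complex I subunit at the intermembrane-space side, had the largest Wnt3a difference among all members. It read 9.77, 9.94 and 9.87 in wild-type control and 10.74, 10.72 and 10.78 in wild-type Wnt3a cells, and 10.11, 10.11 and 9.93 in knockout control and 10.80, 10.91 and 10.89 in knockout Wnt3a cells. Every Wnt3a array exceeded every control array, of either genotype. The differences were 0.89 ± 0.07 (1.85-fold, adjusted p = 7.15e-06) and 0.81 (1.76-fold, adjusted p = 3.26e-05). Ndufb10, a membrane-arm subunit, read 11.09, 11.32 and 11.09 in wild-type control, 11.87, 11.86 and 11.996 in wild-type Wnt3a, 11.42, 11.39 and 11.43 in knockout control and 11.98, 11.91 and 12.01 in knockout Wnt3a cells. It rose by 0.74 ± 0.07 and 0.56 (1.68-fold and 1.47-fold, adjusted p = 2.81e-05 and 0.000387). Ndufs4, an accessory subunit of the NADH-oxidising arm, rose by 0.39 and 0.42 on its brightest probe set, but with the mean of its probe sets its difference in wild-type cells was -0.06, and the call in control medium between genotypes (0.28) was lost.

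Of the assembly factors, Ndufaf2 read 8.63, 9.01 and 8.91 in wild-type control, 9.52, 9.35 and 9.46 in wild-type Wnt3a, 9.04, 8.88 and 9.005 in knockout control and 9.55, 9.57 and 9.56 in knockout Wnt3a cells. Wnt3a arrays lay above control arrays in both genotypes, by 0.60 ± 0.09 and 0.59 (1.51-fold and 1.5-fold, adjusted p = 0.000421 and 0.000997), and the genotypes overlapped in control medium. Ndufaf3, which works with Ndufaf4 in assembling the membrane-near module, rose by 0.28 and 0.29 (adjusted p = 0.0034 and 0.00546). In complex III, Uqcrc2, the core protein 2, read 11.99, 12.11 and 12.05 in wild-type control, 12.41, 12.44 and 12.57 in wild-type Wnt3a, 12.23, 12.19 and 12.12 in knockout control and 12.48, 12.50 and 12.66 in knockout Wnt3a cells, a rise of 0.43 ± 0.07 and 0.37 (adjusted p = 0.000634 and 0.00299). Its partner Uqcrc1 had the opposite sign, -0.14 in wild-type cells (adjusted p = 0.0902) and a fall of 0.23 in knockout cells (adjusted p = 0.016) that was lost without knockout control array 3 (adjusted p = 0.0563) and with median centring (0.069).

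The 4 genes of complex II moved little. Sdha, the flavoprotein, read 11.83, 11.94 and 11.85 in wild-type control, 11.81, 11.74 and 11.79 in knockout control, 12.17, 12.08 and 12.09 in wild-type Wnt3a and 12.02, 12.05 and 11.98 in knockout Wnt3a cells. It was 0.24 higher with Wnt3a in both genotypes (adjusted p = 0.00576 and 0.00975), and both calls were lost with the mean of its probe sets (adjusted p = 0.924 and 0.48). Sdhb, the iron-sulphur subunit, differed by 0.13 and 0.23 with Wnt3a, the second called (adjusted p = 0.0164) but not without knockout Wnt3a array 3 (adjusted p = 0.0593) or with repeated quantile normalization (0.0542). Sdhd, a membrane anchor, was 0.23 higher in the knockout with Wnt3a (adjusted p = 0.0366), a call lost without wild-type control array 3 (0.0529), wild-type Wnt3a array 1 (0.0836) or 2 (0.122), or knockout Wnt3a array 1 (0.0987) or 2 (0.107). With the mean of its probe sets that difference was 0.03 (adjusted p = 0.796), and the call was also lost with only the arrays compared (0.0501). Sdhc, the other anchor, was called in no comparison.

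In complex IV the calls lower with Wnt3a were Cox7b2 and Cox7c in both genotypes, and Cox6a1, the ubiquitous isoform of subunit VIa, in wild-type cells, by 0.16, a call lost without any one of the 6 wild-type arrays (adjusted p up to 0.0724). Cox7c, the ubiquitous subunit VIIc, read 8.06, 8.44 and 8.15 in wild-type control, 7.96, 7.95 and 7.78 in wild-type Wnt3a, 8.55, 8.31 and 8.43 in knockout control and 7.96, 8.08 and 7.98 in knockout Wnt3a cells. It fell by 0.32 (adjusted p = 0.0228) and 0.42 (adjusted p = 0.00879), the first lost without wild-type control array 2 (0.0802) or wild-type Wnt3a array 3 (0.0853). Cox7b2 fell by 0.79 in knockout cells (adjusted p = 0.0154, but 0.0531 without knockout control array 1 and 0.0558 without knockout Wnt3a array 3). In wild-type cells 5 of its 6 arrays lay under the floor in the 2 media together, so the call there (adjusted p = 0.0262, but 0.0956 without wild-type control array 2 and 0.0546 and 0.0784 without wild-type Wnt3a arrays 1 and 3) is not a measured fall. Cox6b2 went the other way in wild-type cells, 0.70 higher (1.63-fold, adjusted p = 0.00557), as did Cox6a2, the muscle isoform of subunit VIa, which read 6.84, 6.80 and 6.93 in control and 7.41, 7.10 and 7.38 in Wnt3a medium, 0.44 higher (adjusted p = 0.00439). In knockout cells Cox6b2 was 0.49 higher (adjusted p = 0.0428), lost on leaving out any array but wild-type Wnt3a arrays 1 and 3 and knockout Wnt3a array 1 (adjusted p up to 0.151). The fall of Ndufa4l2 in knockout cells, by 0.38 (adjusted p = 0.0493), was lost on leaving out any array but wild-type control arrays 2 and 3 and knockout Wnt3a array 3 (adjusted p up to 0.159).

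Complex V had 3 rises and 2 falls in wild-type and 2 rises and 1 fall in knockout cells. None of these rises held under every alternative. Those of Atp5o and Atp5g2 in wild-type and of Atp5e in knockout cells were lost with repeated quantile normalization. That of Atp5g2 in knockout cells was lost with the mean of its probe sets (adjusted p = 0.0808). Atp5d, the delta subunit of the F1 central stalk, read 13.41, 13.48 and 13.45 in wild-type control, 13.06, 13.10 and 13.10 in wild-type Wnt3a, 13.36, 13.24 and 13.33 in knockout control and 13.03, 13.12 and 13.25 in knockout Wnt3a cells. It fell by 0.36 ± 0.06 in wild-type cells (adjusted p = 0.00125) and its difference in knockout cells was -0.18 (adjusted p = 0.0626). Atp5mpl, a small membrane subunit, read 12.69, 12.74 and 12.63 in wild-type control and 12.45, 12.44 and 12.43 in wild-type Wnt3a cells, a fall of 0.25 (adjusted p = 0.00672). In knockout cells it fell by 0.21 (adjusted p = 0.0256), a call that ended without knockout control array 1 (0.0765) or 2 (0.0619) or knockout Wnt3a array 2 (0.0768) or 3 (0.0887), and with median centring (0.0962). Atp5g1, 1 of the genes for the rotor ring subunit c, read 12.23, 12.60 and 12.44 in wild-type control, 12.78, 12.75 and 12.82 in knockout control, 12.66, 12.79 and 12.82 in wild-type Wnt3a and 12.88, 12.87 and 12.82 in knockout Wnt3a cells. The wild-type control arrays stood apart from the rest, below the knockout by 0.36 ± 0.08 (adjusted p = 0.00459) and below wild-type Wnt3a cells by 0.33 (adjusted p = 0.00863), and both calls were lost with the mean of its probe sets (adjusted p = 0.105 and 0.0753). The genes for subunit c share a near-identical mature protein, and how far probes tell them apart was not tested.

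**Figure D5:**
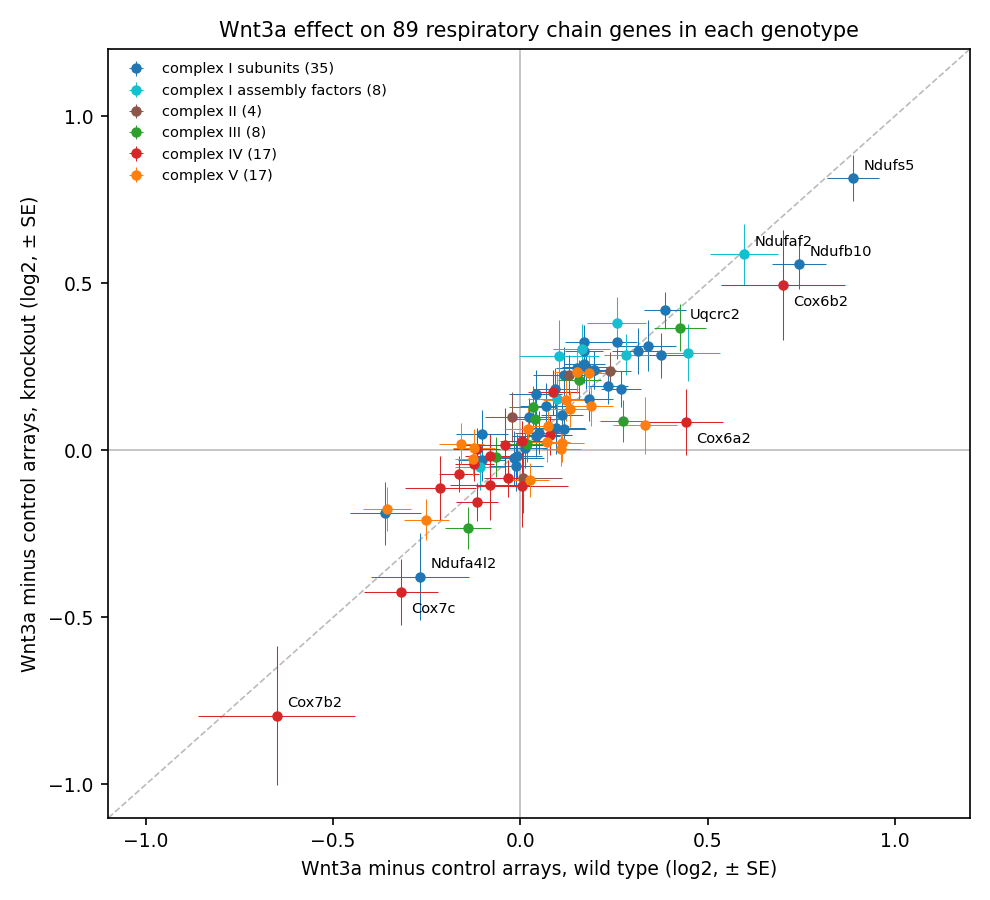
Log2 difference between Wnt3a and control medium for each of the 89 tested members, in wild-type cells (horizontal axis) and in knockout cells (vertical axis), with SE bars. Ndufs5, Ndufb10 and Ndufaf2 lie far above 0 on both axes and Cox7b2, under the floor on nearly all wild-type arrays, far below, and the median of all members, 0.09 on each axis, became -0.0053 in wild-type cells with repeated quantile normalization.

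The comparisons of medium in the 2 genotypes likewise contrast separate arrays but share each gene's estimate of spread, so their calls are not independent either. Of the rises, 24 were called in both genotypes, 82.8% of the 29 in each, where over all tested genes 1195 were, 45.7% of those in wild-type and 64.9% of those in knockout cells. Ndufa6, Ndufa12, Ndufb10, Ndufs1, Ndufs5, Ndufaf2, Ndufaf3 and Uqcrc2 were the 8 called in both under every setting, a count made for the members only. Atp5mpl, Cox7b2 and Cox7c were called lower in both, Cox7b2 in wild-type cells from arrays nearly all under the floor. Signs matched for 80 of 89 members, at r = 0.90 and rho = 0.89 as a description. Over the 4 comparisons 34 of the 89 members were called in none and 7 were higher in all 4. Both counts describe the members only and have no counterpart over all tested genes here.

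No member passed the test of whether the Wnt3a difference itself depended on the genotype (interaction), where 4.08% of all tested genes, 563 in number, were called by limma, 2.2% above and 1.88% below 0. At an unadjusted p under 0.05 there were 2 members, Ndufa7 above 0 and Cox6a2 below. Over all 13811 tested genes 1572 were above and 1379 below 0 at that threshold. The count of called members was 0 under every alternative. Cox6a2 had the largest value, -0.36 (adjusted p = 0.168), its knockout Wnt3a arrays reading 7.37, 7.08 and 7.03.

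The genes around the chain gave a mixed picture. Each list is given as rises and falls at the same threshold. Of all tested genes 19.9% were higher and 22.3% lower in the knockout in control medium, and 13.2% and 14.7% in Wnt3a medium. With Wnt3a 18.9% rose and 22.6% fell in wild-type and 13.3% and 14.7% in knockout cells. Between the genotypes in control medium each of these lists around the chain with 8 or more genes had a smaller share called than the 42.2% of all genes. That share ran from 12.8% (cytosolic ribosomal proteins) to 40.8% (mitochondrial ribosomal proteins). Of 42 tested accessory and assembly factors of the complexes outside the naming rule, 10 were higher and 4 lower in the knockout in control medium and 9 and 2 in Wnt3a medium. They included rises of Uqcc3, a complex III assembly factor (0.48 in control medium), and of Atpaf1, which helps build the F1 head (0.42 and 0.32), and a fall of Tmem70, which assembles the rotor ring (0.45 and 0.21). With Wnt3a 11 rose and 6 fell in wild-type and 13 and 4 in knockout cells, among them Foxred1, a complex I assembly factor (0.64 and 0.66), and Cmc1, which acts on complex IV (0.74 and 0.60). The pyruvate dehydrogenase and citric acid cycle list of 21 had 13 rises and 0 falls with Wnt3a in wild-type and 8 and 0 in knockout cells, with citrate synthase (Cs) 0.33 and 0.42 and the NADP-dependent isocitrate dehydrogenase Idh2 0.39 and 0.45 higher. By genotype this list had 6 rises and 2 falls in control medium and 5 and 0 in Wnt3a medium.

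Of 76 mitochondrial ribosomal protein genes, 24 were higher and 7 lower in the knockout in control medium, 14 and 1 with Wnt3a, and with Wnt3a 35 rose and 4 fell in wild-type and 23 and 3 in knockout cells; the medians were 0.10, 0.10, 0.16 and 0.14, against 0.11, 0.12, 0.09 and 0.09 for the respiratory chain. The 47 cytosolic ribosomal protein genes had medians of 0.02, 0.01, 0.04 and 0.02 in the same order, with 5 rises and 1 fall, 2 and 1, 8 and 0, and 1 and 0. Among 16 glycolytic genes the rises and falls were 3 and 1, 4 and 1, 4 and 3, and 3 and 3. The 23 import genes gave 5 and 4, 3 and 2, 3 and 3, and 3 and 0, and 8 carriers and channels of the mitochondrial membranes gave 1 and 2, 1 and 0, 1 and 1, and 2 and 1. The 19 regulators of mitochondrial biogenesis gave 4 and 2, 3 and 3, 6 and 2, and 2 and 4. Of these Esrrb, an orphan receptor of the pluripotency network, was 1.70 higher in the knockout in control medium and 0.49 with Wnt3a, and its Wnt3a difference was 1.31 in wild-type and 0.10, not called, in knockout cells (interaction -1.20, adjusted p = 0.00454). The mitochondrially encoded ND5, a core complex I subunit, had a probe set that read 0.31 ± 0.09 higher in the knockout in control medium (adjusted p = 0.0139) and rose with Wnt3a by 0.64 and 0.44; with Wnt3a its knockout difference was 0.11, not called.

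Where a member had several probe sets, the brightest stood for it. In the knockout comparisons no member had probe sets called in opposite directions. With Wnt3a 4 members did in wild-type cells (Cox5b, Ndufa10, Ndufab1 and Uqcr10) and 4 in knockout cells (Cox5b, Ndufa10, Ndufab1 and Ndufs4), out of 49 with at least 2 tested probe sets. For Ndufa10 the brightest probe set gave 0.17 and 0.26 with Wnt3a and the other -0.75 and -0.33. The cause was not tested, and the direction of these genes with Wnt3a is uncertain.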

How the data were processed

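The authors deposited 1 table of linear intensities, 45101 probe sets by 12 arrays. Per the submitters' processing notes they used RMA (version and settings unstated there). Total RNA was labelled with biotin, per the labels' protocols. Symbols came from GEO's platform annotation: 34945 probe sets had 1 symbol, 932 several, and 9160 none besides 64 controls; those without exactly 1 were not used for genes. Groups were taken from the labels.

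Deposited intensities were turned into log2. A gene was represented by its probe set with the highest mean and tested if it exceeded the 40th percentile of the table (5.56) on at least 3 of 12 arrays, which also served as the floor. Differences were fitted over all 12 arrays with limma 3.58.1 in R 4.3.3 (4 group means, lmFit and eBayes), with Benjamini-Hochberg adjustment over 13811 genes in each of 5 comparisons and a threshold of 0.05; the fit was tested on simulated data. Folds are of RMA values, which compress large differences. Arrays have no read depth, and their number, 3 per group, limits the precision. An exact permutation test of 3 against 3 cannot go below 0.1 and was not used.

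Alternatives were another filter, the mean of a gene's probe sets, only the groups compared, median centring, repeated quantile normalization, an intensity trend, the replicate number as a block, and each array left out.

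Names came from the up to 3 largest called rises and falls per part of the chain and comparison, and some were left out. Named too were all complex II genes and the tissue-restricted isoforms, and from other lists up to 3 rises and falls. Other names came from lists of calls, or were chosen after their values were seen, as were Ndufb5, Ndufs1 and Ndufv1. The members and lists were chosen with earlier results of these data known.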

Additional observations from a re-analysis of the deposited data

Results flagged for a closer look

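The dap spike-in, outside the comparisons of genes, separated the arrays by medium: its mean log2 intensity was 4.41 ± 0.05 on the 6 control-medium arrays and 11.69 ± 0.08 on the 6 Wnt3a arrays (SD), a difference of 7.28. Its part in the Wnt3a comparisons was not tested.

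Atp5b, the catalytic beta subunit of complex V, was flagged because its arrays parted opposite ways: it read 13.98, 13.98 and 13.96 in wild-type control and 14.01, 14.10 and 14.08 in knockout control cells, but 13.99, 14.004 and 13.997 in wild-type Wnt3a and 13.97, 13.99 and 13.95 in knockout Wnt3a cells. The knockout difference in Wnt3a medium minus that in control medium was -0.12, which did not pass the test (interaction, limma adjusted p = 0.393).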

How the results depend on the processing

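Each of 20 alternatives was run for every comparison. With an intensity trend in the prior variance 44 members were called between the genotypes in control medium, 36 higher and 8 lower, against 28 in the main fit. Over all 13811 tested genes 5965 were called with that trend and 5824 in the main fit. The share of members called thus lay above that of all genes with the trend and below it in the main fit. The members' median with Wnt3a in wild-type cells was 0.1606 with median centring and -0.0053 with repeated quantile normalization, and in knockout cells 0.1504 and 0.0179. The median of all genes moved too. It became 0.049 and -0.037 in wild-type cells, from -0.024, and 0.053 and -0.013 in knockout cells, from -0.0099. Repeated quantile normalization left 9 complex I subunits higher with Wnt3a in wild-type and 13 in knockout cells. The share of called members that were higher with Wnt3a in wild-type cells, 82.9%, became 50% with repeated quantile normalization and 68.4% with the mean of all probe sets; in knockout cells 85.3% became 75% and 70.6%. With the mean of all probe sets the Wnt3a difference in wild-type cells became 0.135 for Cox5a, -0.2895 for Ndufa10, -0.3144 for Ndufab1, -0.2773 for Ndufb8, -0.063 for Ndufs4 and -0.0628 for Uqcr10, and in knockout cells -0.2107 for Atp5a1, -0.0365 for Ndufa10, -0.2393 for Ndufab1 and -0.1731 for Uqcr10, all with the sign turned. The cause was not tested.

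Leaving out 1 array at a time, the number of members called ranged from 17 to 29 between the genotypes in control medium and from 13 to 27 in Wnt3a medium, with 9 to 15 and 7 to 15 complex I subunits higher. The counts with Wnt3a ranged from 25 to 35 in wild-type and from 24 to 34 in knockout cells. Counts over all genes with an array left out are not given here. The medians ranged from 0.0821 to 0.1326 and from 0.1083 to 0.1218 between the genotypes, from 0.042 to 0.1185 and from 0.0791 to 0.1066 with Wnt3a, and from -0.0147 to 0.0484 for the interaction, whose count stayed at 0.

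Same-numbered arrays did not deviate together (r from -0.257 to 0.244, over 0.1 in 4 of 18 pairs), so the numbers were not taken to pair the samples. With a replicate block 23 and 20 members were called between the genotypes in control and Wnt3a medium, 32 and 34 with Wnt3a in wild-type and knockout cells, and 0 in the interaction. Over all tested genes the counts were then 5600, 3622, 5474, 3553 and 394 in the same order. In the main fit those counts over all genes were 5824, 3863, 5733, 3872 and 563.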
